A study of Homo sapiens with 44 samples.

Results

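The DNA replication and mitosis genes followed here are 36 genes matched by symbol in both deposited RNA-seq tables, of 25689 gene symbols in each. They were split by the phase of the cell cycle in which they act into 23 G1/S genes and 13 G2/M genes. The study knocked down IRF2BP2, a transcriptional coregulator, in 2 human cell lines and treated the cells with the synthetic glucocorticoid dexamethasone (dex), which activates the glucocorticoid receptor (GR). HEK293-GR are embryonic kidney cells of the isogenic Flp-In type carrying a GR transgene that is always on, and like all HEK293 cells they express the adenoviral protein E1A, which is known to bind the retinoblastoma proteins. A549 are lung adenocarcinoma cells with their own GR. All RNA samples, controls included, had been in steroid-depleted medium and transfected for 72 h with 20 nM of an siRNA pool, either non-targeting (siNON) or against IRF2BP2 (siIRF2BP2). Treatment lasted 6 h. HEK293-GR cells received ethanol vehicle or 100 nM dex, with 3 libraries per group in the table analysed here (12 in all). A549 cells received vehicle, 100 nM dex, 10 ng/ml of the cytokine TNF (tumor necrosis factor), or dex and TNF together, and their table gives 1 pooled column for each of the 8 groups of 3 samples.

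As background, a cell enters S phase when cyclin E and its kinase inactivate the retinoblastoma proteins and so free E2F transcription factors, which switch on the genes for licensing origins (CDC6, CDT1 and the MCM helicase), for unwinding DNA (CDC45 and the GINS complex), for copying it (PCNA, RFC4 and FEN1) and for making nucleotides (RRM1, RRM2 and TYMS). Genes of G2 and mitosis, among them cyclin B, CDK1, the Aurora and Polo kinases and the spindle checkpoint genes, are switched on later through the cell cycle homology region (CHR), bound by the DREAM and MuvB complexes with B-MYB and FOXM1. Glucocorticoids are known to slow the proliferation of many epithelial cells, in part through CDK inhibitors such as CDKN1A (p21) and CDKN1C (p57).

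The promoters of the members show this division, and examples are printed to show the motifs by which both sets are known. RefSeq promoters (GRCh38.p14, 250 bases before to 50 after the start site) were matched for 31 of the 36 members. An E2F type motif (TTTCCCGC, TTTCGCGC, TTTGCCGC or TTTGGCGC, either strand) was found in 13 of 20 G1/S genes (65%) and in 1 of 11 G2/M genes, against 3.99% of all 27305 genes. A CHR type motif (TTTGAA or TTCGAA, either strand) was found in 2 of 20 G1/S genes and in 8 of 11 G2/M genes (72.7%), against 19.5% of all genes. The CCAAT box, often paired with the CHR, was in 10 of 11 G2/M genes and 13 of 20 G1/S genes, against 39.7%. The 100 bases before the start site follow for 4 G1/S genes, with the E2F type motifs in capitals, and for 3 G2/M genes, with the CHR type motifs in capitals. The windows lie at chr2:135876444-135876543 (minus strand, MCM6), chr16:85688955-85689054 (minus, GINS2), chr19:4909401-4909500 (plus, UHRF1), chr20:33686386-33686485 (minus, E2F1), chr10:60778378-60778477 (plus, CDK1), chr15:40160969-40161068 (plus, BUB1B) and chr16:23678789-23678888 (plus, PLK1).
MCM6: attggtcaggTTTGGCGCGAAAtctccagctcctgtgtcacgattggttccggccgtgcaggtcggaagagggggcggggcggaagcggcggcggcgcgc
GINS2: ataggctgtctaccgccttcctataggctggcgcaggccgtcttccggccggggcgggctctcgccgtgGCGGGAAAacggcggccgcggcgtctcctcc
UHRF1: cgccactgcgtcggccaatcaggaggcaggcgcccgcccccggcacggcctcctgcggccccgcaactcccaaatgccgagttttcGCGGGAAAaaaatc
E2F1: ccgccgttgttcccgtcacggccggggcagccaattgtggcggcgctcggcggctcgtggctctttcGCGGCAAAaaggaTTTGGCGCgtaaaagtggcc
CDK1: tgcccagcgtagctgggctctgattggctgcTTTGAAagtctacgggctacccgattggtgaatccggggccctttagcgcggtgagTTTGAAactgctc
BUB1B: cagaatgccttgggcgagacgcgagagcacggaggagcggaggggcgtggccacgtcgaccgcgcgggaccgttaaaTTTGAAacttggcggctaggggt
PLK1: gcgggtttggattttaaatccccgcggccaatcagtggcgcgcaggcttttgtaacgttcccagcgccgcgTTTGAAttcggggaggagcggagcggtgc

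The targeted gene fell with siIRF2BP2 in both lines. In HEK293-GR, IRF2BP2 was at 20.3 to 25.0 FPKM (fragments per kilobase of exon and per 1e6 tags) with siNON and vehicle and at 11.8 to 13.7 with siIRF2BP2 (log2 fold change -0.84 ± 0.08 SE, adjusted p = 1.9e-05), and at 19.3 to 20.6 against 9.64 to 11.1 under dex (-0.94 ± 0.08, adjusted p = 3.4e-06). In A549 the authors' deposited log2 fold change was -0.31 with vehicle, -0.66 with dex, -0.40 with TNF and -0.62 with both agents, each past their false discovery rate (FDR) of 0.05. The pooled FPKM of IRF2BP2 in A549, in the same order, were 29.7, 31.3, 26.3 and 25.4 with siNON. With siIRF2BP2 they were 26.3, 22.9, 21.4 and 17.9, so the fall was smallest under vehicle. CDKN2A, an inhibitor of the cyclin D kinases, was at 29.1 to 46.3 FPKM in HEK293-GR libraries and at 0 to 0.002 in A549, and the A549 marker AKR1B10 was at 0.025 to 0.218 in HEK293-GR and at 246 to 519 in A549. The HEK293-GR libraries held 18.2 to 28.5 M (1e6) tags, and the A549 pooled columns 35.8 to 56.9 M. The members had 319 to 11217 reads per HEK293-GR library and at least 200.1 reads per A549 column on average, the fewest for CCNE2 and E2F2 (271.5). Replicate 3 of siNON vehicle in HEK293-GR stood apart: its counts differed from replicates 1 and 2 with a chi-square of 17.6 and 14.1 per gene, against 3.70 between those. Replicate 2 of siIRF2BP2 vehicle differed from the others of its group by 9.87 and 12.6, against 4.22, and pairs within the dex groups by 1.33 to 5.19. The p-values measure the spread between these libraries. In bulk RNA, a change in the share of cells in a phase and a change of RNA per cell cannot be told apart.

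In HEK293-GR, knockdown of IRF2BP2 raised CCNE2 and lowered CCNE1, the cyclin E genes, under vehicle and under dex. Under vehicle, 2 of 36 passed the limma test (1 higher and 1 lower, both G1/S), against 15.5% of all 15594 genes tested (8% higher and 7.48% lower). Under dex, 5 of 36 passed (2 higher and 3 lower), against 39.7% (22.4% and 17.3%). Under dex the count was 14 to 17 of 36 with other scalings and tests, given below. By the authors' deposited FDR 0 passed under vehicle, where 5.41% of all genes did (2.01% higher and 3.4% lower), and 17 passed under dex (46.5%). The median log2 fold change of the members was -0.05 under vehicle and -0.09 under dex, where that of all genes was 0.03 and -0.00. The 95% interval of a member's log2 fold change was ±0.19 at the median (±0.14 to ±0.33), so smaller changes were mostly below what this limma fit could call.

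CCNE2, which encodes cyclin E2 and is an E2F target, was the member with the largest change. Its FPKM with siNON and vehicle were 6.82, 6.26 and 10.3, and with siIRF2BP2 11.2, 12.98 and 10.6. The groups did not overlap, as in 3 of 36 members and 26.7% of all genes, and siNON replicate 3, the library that stood apart, came closest to the knockdown. The log2 fold change was 0.59 ± 0.16 (SE, adjusted p = 0.018), and it lost its call (0.45 to 0.52) without siNON vehicle replicate 1 or 2 or siIRF2BP2 vehicle replicate 2. Under dex the FPKM were 8.05, 10.0 and 7.31 with siNON and 14.9, 13.8 and 12.2 with siIRF2BP2, again with no overlap (0.69 ± 0.16, adjusted p = 0.0032). CCNE1, which encodes cyclin E1, went the opposite way. Its FPKM under vehicle were 21.5, 21.3 and 21.0 with siNON and 17.0, 16.8 and 18.4 with siIRF2BP2 (-0.29 ± 0.07, adjusted p = 0.0090). Under dex they were 22.2, 24.03 and 21.5 with siNON against 18.6, 19.3 and 18.1 (-0.27 ± 0.07, adjusted p = 0.0048). CCNE1 thus stayed above CCNE2 in FPKM, a scale per exon length, in all 12 libraries, and the distance between them was smaller with siIRF2BP2.

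**Figure D1:**
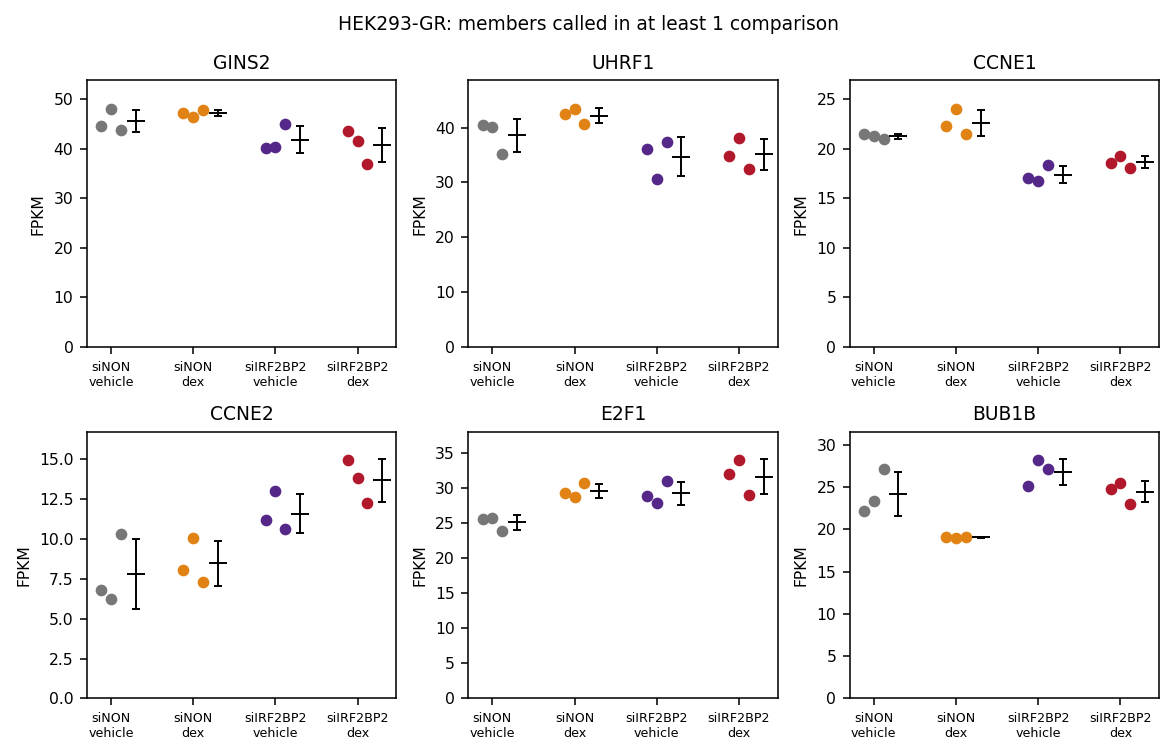
FPKM of the 6 members called in at least 1 HEK293-GR comparison, in each of 3 libraries per group (points; y axes in FPKM from 0), with the mean and SD beside them (bars). CCNE2 is at 6.26 to 10.3 with siNON and at 10.6 to 14.9 with siIRF2BP2, CCNE1 is lower in every siIRF2BP2 library, and BUB1B is lowest in the 3 siNON dex libraries.

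Under dex 3 more genes passed the knockdown test. UHRF1, which carries DNA methylation through replication, was at 42.6, 43.4 and 40.6 FPKM with siNON and at 34.8, 38.1 and 32.5 with siIRF2BP2 (-0.27 ± 0.09, adjusted p = 0.028). GINS2, a subunit of the GINS complex of the replicative helicase, was at 47.3, 46.5 and 47.7 with siNON and at 43.6, 41.5 and 36.9 with siIRF2BP2 (-0.22 ± 0.08, adjusted p = 0.042). BUB1B, the spindle checkpoint protein BUBR1 and the only G2/M gene called, was higher, at 24.8, 25.5 and 23.1 against 19.1, 19.0 and 19.1 (0.36 ± 0.08, adjusted p = 0.0028). The libraries of both siRNAs did not overlap for any of these 3, as for 13 of 36 members, against 58% of all genes. UHRF1 lost its call in 5 of 19 alternatives and GINS2 in 10 of 19, among them leaving out siIRF2BP2 dex replicate 3 (-0.21 and -0.15). The genes of the MCM helicase did not pass this fit, where MCM2 gave -0.24 ± 0.10 (adjusted p = 0.066). MCM2, MCM3 and MCM4 were each called lower in the other 4 of the 5 settings of the next paragraph and MCM5 in 2, and in the authors' deposited table MCM2 was at -0.26 (FDR 0.00039) and MCM3 at -0.22 (FDR 0.0056).

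How many members passed under dex depended on the scaling, the test, the covariate and the libraries used. With libraries rescaled by their median ratio 14 passed (3 higher and 11 lower), with limma-voom on whole reads 15 (5 and 10), and by the authors' deposited FDR 17 (4 and 13), where 43.4%, 42.4% and 46.5% of all genes passed (22.2% higher and 24.3% lower by the authors' FDR). The 5 genes above were called in the same direction in all of these. PLK1, CDC45 and CDC20 were called lower and RRM1 higher in all of them but the main limma fit, counting the covariate below. The medians of the members spread most among the siIRF2BP2 dex libraries: the median G1/S gene was at 0.11 (log2, relative to the siNON vehicle mean) in replicate 2, the shallowest of the 12 libraries at 18.2 M tags, and at -0.16 in replicate 3, the deepest at 28.5 M, and the G2/M median was at 0.08 and -0.18. The part of depth in these calls was not tested beyond the covariate below. The densest gene held 2.83 to 3.11 reads per base across the 12 libraries, shallow and deep alike. At their densest, 20 of the 36 members passed 1 read per base (at most 1.68). Whether reads were limited at dense genes, and what that would do to these values, was not tested. Without siIRF2BP2 dex replicate 2, 10 passed, and without any 1 of the siNON dex libraries 3 passed. The shares of all genes in these fits are not given here. With the log2 of a library's tags as a covariate, an alternative chosen after seeing the data, 16 passed (6 higher and 10 lower), where 40.8% of all genes did. Under vehicle 5 passed with this covariate, where 12.7% of all genes did.

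**Figure D2:**
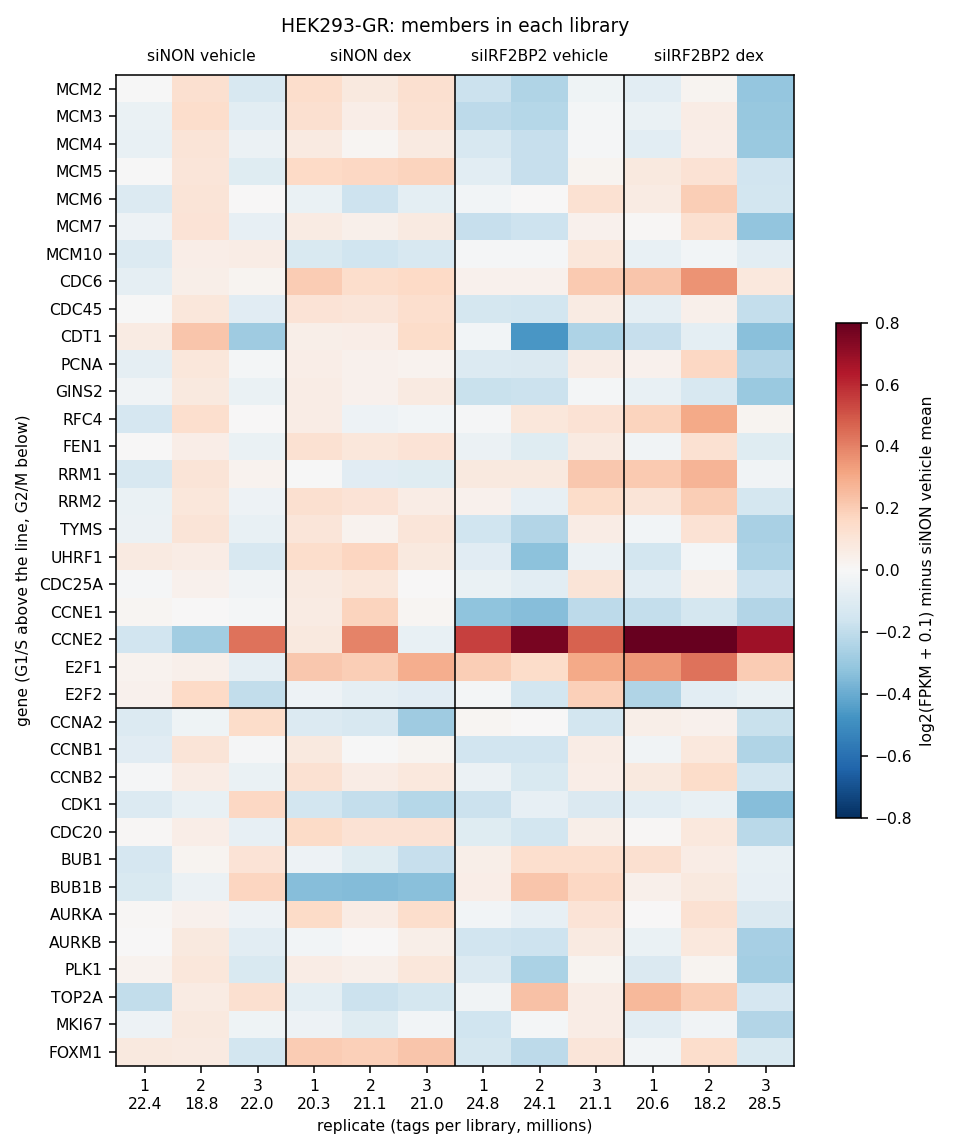
Log2(FPKM + 0.1) of each member in each HEK293-GR library, minus its mean over the 3 siNON vehicle libraries (colour; rows are genes, columns are libraries with their tags in M). CCNE2 is the only row that is strongly red across siIRF2BP2, and siIRF2BP2 dex replicate 3, at 28.5 M tags, is pale blue in most rows.

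Dex itself, given to HEK293-GR cells for 6 h, left nearly all members below the test. With siNON, 2 of 36 passed (1 higher and 1 lower), against 20.7% of all genes (10.9% and 9.82%). By the authors' FDR 1 passed, lower, against 7.68% of all genes higher and 8.75% lower. Libraries did not overlap in 13 of 36 members, against 39.1% of all genes. E2F1, the transcription factor at the head of the G1/S program, was at 25.7, 25.8 and 23.9 FPKM under vehicle and at 29.2, 28.8 and 30.8 under dex (0.24 ± 0.07, adjusted p = 0.034). BUB1B was at 22.2, 23.3 and 27.2 under vehicle and fell to 19.1, 19.0 and 19.1 (-0.34 ± 0.08, adjusted p = 0.0057). Without siNON vehicle replicate 3, or without any 1 of the siNON dex libraries, 1 passed, BUB1B, and E2F1 lost its call. With siIRF2BP2, limma called 0 of 36, against 10.5% of all genes (5.86% higher and 4.59% lower). By limma-voom and by the authors' FDR 0 passed too, the latter against 5.24% of all genes higher and 5.28% lower. At an unadjusted p under 0.05 limma had 0 of 36, against 3126 of all 15594 genes. Libraries did not overlap in 1 of 36, against 25.3%. The difference between both dex responses was tested directly, and limma and limma-voom called 0 of 36, against 0.0128% of all genes by limma. At an unadjusted p under 0.05 limma had 0 of 36, against 805 of all 15594 genes. The 36 differences lay between -0.12 and 0.21, with 95% intervals of ±0.27 at the median.

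Genes that govern G1 responded to dex in HEK293-GR. Of 26 G1 regulators and CDK inhibitors, 12 passed with siNON (3 higher and 9 lower, together 46.2%, against 20.7% of all genes) and 9 with siIRF2BP2 (3 and 6, together 34.6%, against 10.5%). CDKN1C was at 0.875 to 1.30 FPKM under vehicle and at 25.9 to 30.2 under dex with siNON (log2 fold change 4.50 ± 0.18, adjusted p = 1.7e-11), and at 0.453 to 0.818 and 12.05 to 15.9 with siIRF2BP2 (4.37 ± 0.18, adjusted p = 3.5e-11). CDKN1A rose by 1.33 ± 0.09 and 1.10 ± 0.09, and MYC, a driver of G1 progression, fell by 1.66 ± 0.08 and 1.41 ± 0.08. CDKN2B, an inhibitor of the cyclin D kinases, fell by 0.48 and 0.61. For none of these 4 did the difference of the responses between the siRNAs pass (adjusted p 0.79 to 0.90). The knockdown itself lowered CDKN1C, by 0.85 under vehicle and 0.97 under dex, and RB1, the retinoblastoma gene, by 0.48 under vehicle.

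In the wider lists of HEK293-GR, knockdown lowered GINS3 and raised POLD3 and E2F7. Of 43 other replication genes, 5 passed under vehicle (2 higher and 3 lower, together 11.6%, against 15.5% of all genes) and 17 under dex (12 and 5, together 39.5%, against 39.7%). GINS3, another GINS subunit, was lower (-0.36 ± 0.07 and -0.53 ± 0.07), and POLD3, a subunit of DNA polymerase delta, was higher (0.43 ± 0.08 and 0.47 ± 0.08). E2F7, an E2F repressor, was higher too (0.39 ± 0.07 and 0.37 ± 0.07). Of 35 other mitosis genes, 0 passed under vehicle by limma, with 5 at an unadjusted p under 0.05, against 4860 of all 15594 genes. Under dex 12 passed (8 higher and 4 lower, together 34.3%), among them the kinetochore gene NDC80 (0.39 ± 0.10) and the centromeric histone gene CENPA (-0.38 ± 0.08). With siNON, the dex response called 4 of the 43 (9.30%) and 3 of the 35 (8.57%), against 20.7% of all genes. With siIRF2BP2 it called 0 of both lists, against 10.5% of all genes. At an unadjusted p under 0.05 there were 3 and 0, against 3126 of all 15594 genes.

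In A549 the values are the authors' deposited log2 fold changes and FDR for the transcript with the most reads. The FPKM of this table are divided by the genomic span of the transcript, so levels are compared only within a gene, and the pooled columns give no replicate spread. Background shares are over 15602 genes with at least 10 reads per column. Comparisons that use the same group share its libraries.

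Knockdown of IRF2BP2 in A549 moved members in both directions. By the authors' FDR, 6 of 36 rose and 5 fell under vehicle (against 17.3% and 19.3% of all genes), 3 rose and 10 fell under dex (16.2% and 17.6%, together 33.8%), 12 rose and 4 fell under TNF (21% and 20.4%, together 41.4%), and 6 rose and 15 fell under dex plus TNF (19% and 19.2%, together 38.2%). Under vehicle the shares were near the background. Under dex plus TNF, 14 of the 23 G1/S genes fell and 3 rose, while 1 of the 13 G2/M genes fell and 3 rose. Across the 4 knockdown comparisons, 3 members rose in all, 3 fell in all, none moved in both directions, and 8 were called in none. The same counts were not taken over all genes, so how they compare with the background is not known. Each of the 4 comparisons contrasts the same siRNAs.

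The members that rose in all 4 were CCNE2, RRM2 and CCNA2. The authors' log2 fold change of CCNE2 was 1.44 with vehicle, 1.83 with dex, 1.54 with TNF and 0.98 with both agents. Its pooled FPKM were 0.191, 0.121, 0.155 and 0.163 with siNON and 0.579, 0.482, 0.486 and 0.335 with siIRF2BP2, so that each knockdown column lay above all 4 siNON columns. CCNE2 had 200.1 reads per column on average, the fewest of the members, and shares 268 bases with INTS8, which had 1729. RRM2, the regulated subunit of ribonucleotide reductase, gave 0.83, 0.74, 0.82 and 0.54, with pooled FPKM of 9.55 to 9.87 with siNON and 15.3 to 19.0 with siIRF2BP2. RRM1, its partner subunit, passed under TNF alone of the 4 (0.18). CCNA2, the cyclin of S phase and G2, gave 0.46, 0.31, 0.41 and 0.28.

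The members that fell in all 4 were CDK1, TYMS and GINS2. CDK1, the mitotic kinase, gave -0.40, -0.72, -0.35 and -0.73, with pooled FPKM of 4.22 to 5.00 with siNON and 2.66 to 4.20 with siIRF2BP2. TYMS, which makes thymidylate, gave -0.35, -0.41, -0.30 and -0.54, and shares 20.0% of its span with ENOSF1. GINS2 gave -0.32, -0.39, -0.28 and -0.67. CCNE1 was lower under vehicle (-0.31) and dex (-0.52), the conditions in which it was also lower in HEK293-GR, and gave -0.06 and -0.24 under TNF and dex plus TNF, which did not pass. RRM2 and CDK1 were not called in HEK293-GR, where the knockdown gave RRM2 0.04 and -0.05 and CDK1 -0.12 and 0.03 (log2, vehicle and dex).

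**Figure D3:**
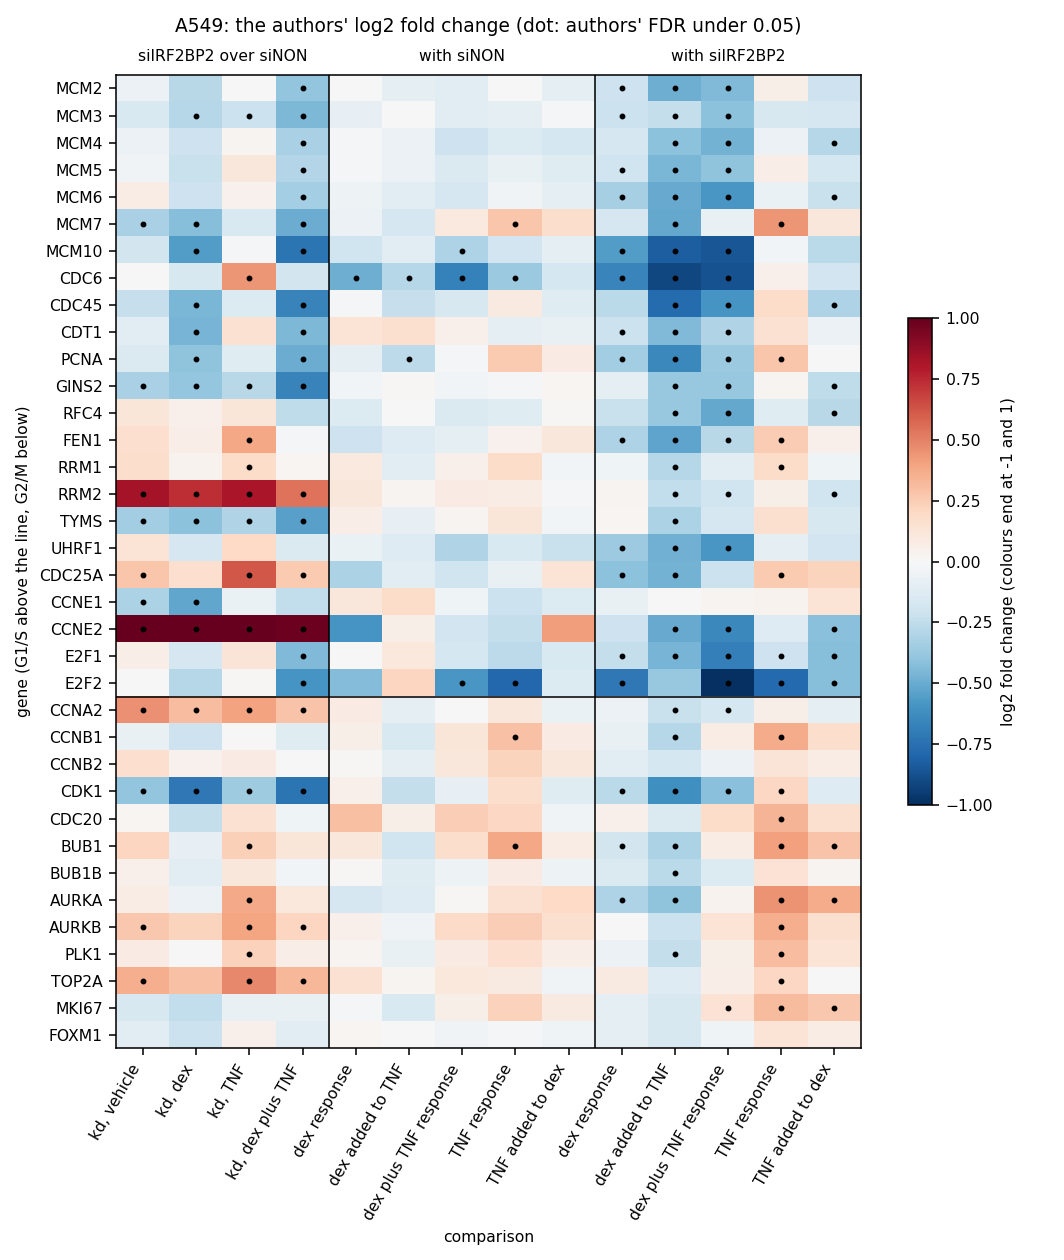
The authors' log2 fold change of each member (rows) in 14 A549 comparisons (columns), with a dot where their FDR was under 0.05 (colours end at -1 and 1). The G1/S rows are mostly blue in the 3 comparisons of dex with siIRF2BP2, and CCNE2 and RRM2 are red in all 4 knockdown columns.

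In A549, dex lowered replication genes in the cells with siIRF2BP2. With siNON, dex lowered 1 of 36 (against 4.66% of all genes) and raised 0 (6.54%). That gene was CDC6, the loader of the MCM helicase, at 3.46 FPKM under vehicle and 2.38 under dex (log2 fold change -0.49). With siIRF2BP2, dex lowered 16 of 36 (11.4% of all genes) and raised 0: 13 of the 23 G1/S genes and 3 of the 13 G2/M genes. The lowest values were those of E2F2 (-0.72), CDC6 (-0.66, from 3.91 to 2.31 FPKM) and MCM10, which loads other replication proteins (-0.56, from 0.531 to 0.348 FPKM). MCM2, MCM3, MCM5 and MCM6, subunits of the helicase, fell by 0.20 to 0.33. The licensing factor CDT1 (-0.22), the sliding clamp PCNA (-0.35), the flap nuclease FEN1 (-0.31), UHRF1 (-0.36), the phosphatase gene CDC25A (-0.41) and E2F1 (-0.24) fell as well. The G2/M genes that fell were CDK1 (-0.27), BUB1 (-0.18) and AURKA (-0.31).

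The median log2 fold change to dex over all members was -0.01 with siNON and -0.19 with siIRF2BP2, while over all genes it was -0.01 and -0.00. The value with siIRF2BP2 was below that with siNON in 35 of 36 members, the exception being CCNE2 (-0.59 with siNON, which did not pass, and -0.20), against 47.9% of all genes. The pooled columns allow no test of that difference, so it was not tested. More of all genes passed with siIRF2BP2 (25.6%, against 11.2% with siNON), and the depth of the columns was 56.9 M tags for both siNON groups and 37.5 and 36.01 M for both siIRF2BP2 groups; the part of either was not tested. In the HEK293-GR libraries, where this difference could be tested, no member passed, against 0.0128% of all genes. With so few calls, and member intervals of ±0.27 at the median, that test cannot decide whether HEK293-GR lacked such a difference.

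**Figure D4:**
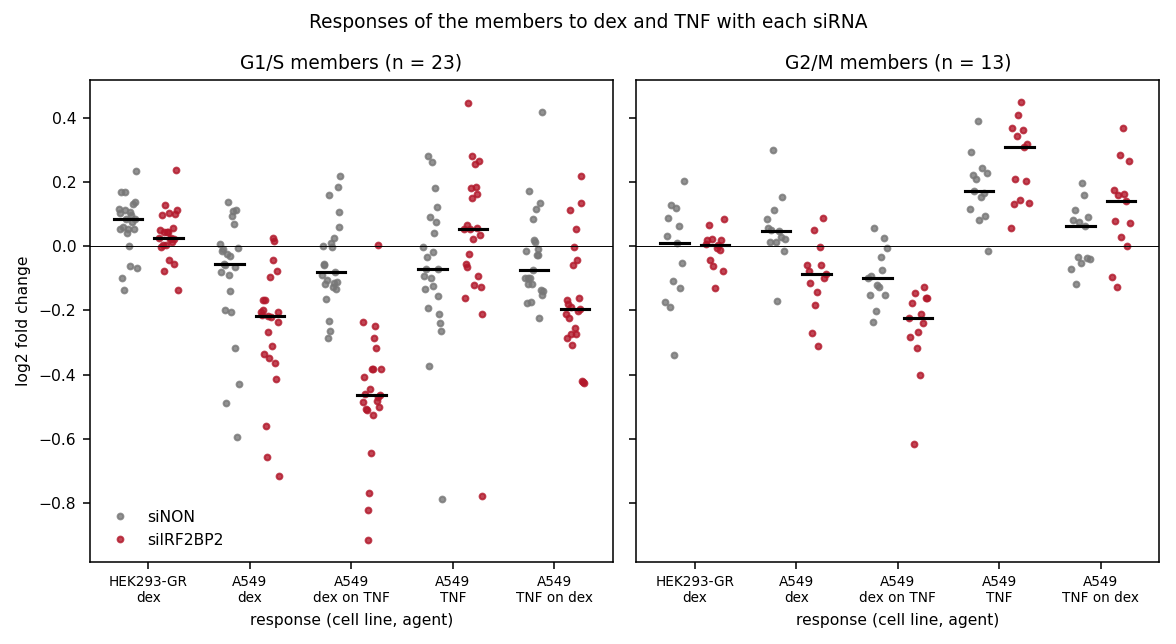
Log2 fold change of every G1/S member (left) and G2/M member (right) to dex or TNF with siNON (grey) and siIRF2BP2 (red), from limma in HEK293-GR and from the authors' deposited table in A549 (points are genes, black lines are medians; "dex on TNF" is dex plus TNF over TNF). The G1/S medians for dex on TNF are -0.08 and -0.46, and the G2/M medians for TNF are 0.17 and 0.31 (0.11 and 0.18 by the ratio of pooled FPKM).

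When dex was added to TNF, more replication genes and some mitotic genes fell in the cells with siIRF2BP2. With siNON 2 of 36 fell (7.85% of all genes) and 0 rose, CDC6 (-0.29) and PCNA (-0.26). With siIRF2BP2 28 of 36 fell (12% of all genes) and 0 rose: 21 of 23 G1/S genes and 7 of 13 G2/M genes. CDC6 went from 3.70 to 1.93 FPKM (-0.91), MCM10 from 0.478 to 0.264 (-0.82) and CDC45, a partner of MCM and GINS, from 0.497 to 0.287 (-0.77). PCNA went from 23.8 to 14.9 (-0.64) and CDK1 from 4.20 to 2.66 (-0.62). The 2 G1/S genes that did not pass were CCNE1 (0.00) and E2F2 (-0.38). The 6 G2/M genes that did not pass, CCNB2, CDC20, AURKB, TOP2A, MKI67 and FOXM1, lay between -0.21 and -0.13. The value was lower with siIRF2BP2 than with siNON in 36 of 36 members, against 52.6% of all genes, and that difference was not tested. Against vehicle, dex plus TNF lowered 3 of 36 with siNON (10.2% of all genes), CDC6, E2F2 and MCM10, and 20 with siIRF2BP2 (21.2%), of which 18 were G1/S genes. E2F2 reached -1.17 there, from 0.368 to 0.149 FPKM. MKI67 alone rose with siIRF2BP2 (0.15, with pooled FPKM of 7.18 under vehicle and 7.26 under both agents), against 22.8% of all genes.

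More G2/M genes passed the authors' FDR as raised by TNF with siIRF2BP2 (9 of 13) than with siNON (2 of 13). More of all genes passed too (39.8% and 20.8%, either direction). The direction was shared: 12 of 13 G2/M fold changes were positive with siNON and 13 with siIRF2BP2. At the authors' unadjusted p under 0.05, 6 were higher with siNON and 10 with siIRF2BP2. The G2/M medians by pooled FPKM were 0.11 and 0.18. With siNON, TNF raised 3 of 36 (10.8% of all genes) and lowered 2 (10%): CCNB1, BUB1 and MCM7 rose (0.29, 0.39 and 0.28), and CDC6 and E2F2 fell (-0.37 and -0.79). With siIRF2BP2 it raised 14 of 36 (19.8%) and lowered 2 (19.9%), E2F1 (-0.21) and E2F2 (-0.78). Of the 13 G2/M genes 9 rose. They were the cyclin gene CCNB1 (0.37), its kinase CDK1 (0.21), CDC20, an activator of the anaphase promoting complex (0.34), the checkpoint kinase gene BUB1 (0.41), AURKA (0.45), AURKB (0.36), PLK1 (0.31), the topoisomerase gene TOP2A (0.20) and the proliferation marker MKI67 (0.32). AURKA, for example, was at 4.11 FPKM under vehicle and 5.14 under TNF, and PLK1 at 12.1 and 13.7. The G1/S genes that rose were MCM7 (0.45), PCNA (0.28), FEN1 (0.26), RRM1 (0.19) and CDC25A (0.26). The difference between the siRNAs in the TNF response was not tested. The medians of this response depended on how the fold was taken: with siIRF2BP2 the G2/M median was 0.31 by the authors' log2 fold change and 0.18 by the ratio of pooled FPKM, the G1/S median was 0.05 and -0.08, and the median of all genes -0.01 and -0.08.

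When TNF was added to dex, G1/S genes fell in the cells with siIRF2BP2. With siNON 0 of 36 passed by the authors' FDR and 0 had an unadjusted p under 0.05 (11.1% of all genes passed). With siIRF2BP2, 9 G1/S genes fell and 0 rose, while 3 G2/M genes rose and 0 fell, against 14.2% of all genes lower and 17.9% higher. The G2/M count (23.1%) was near the background, and the phases were not tested against each other. MCM4, MCM6, CDC45, GINS2, RFC4, RRM2, CCNE2, E2F1 and E2F2 were those that fell, by 0.20 to 0.43, and BUB1, AURKA and MKI67 were those that rose (0.28, 0.37 and 0.27).

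**Figure D5:**
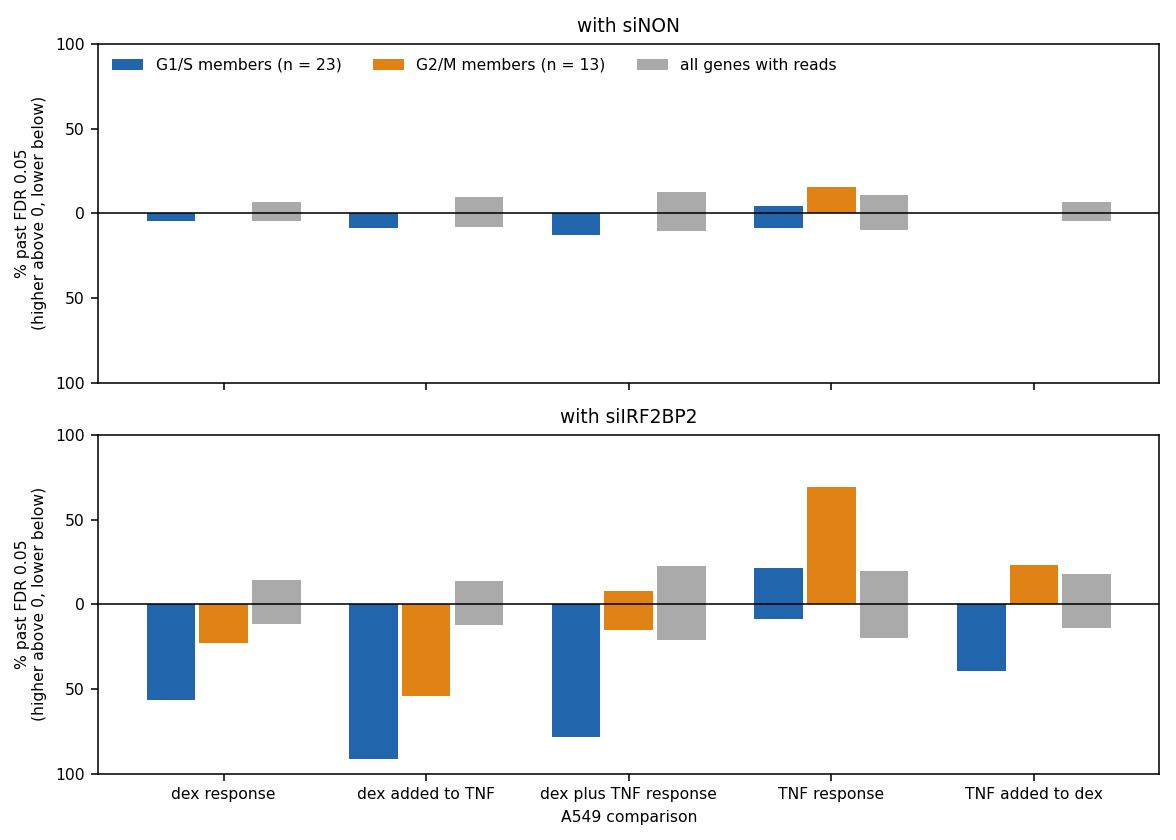
Percent of the 23 G1/S members, the 13 G2/M members and all 15602 genes with reads that were higher (above 0) or lower (below 0) at the authors' FDR under 0.05 in 5 A549 comparisons, with siNON (top) and siIRF2BP2 (bottom). With siIRF2BP2 the G1/S bars for the 3 dex comparisons reach far below the grey bars, and the G2/M bar for TNF far above.

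The wider lists were counted in A549 as well. Of 43 other replication genes, dex lowered 1 with siNON (2.33%, against 4.66% of all genes) and 11 with siIRF2BP2 (25.6%, against 11.4%). Dex added to TNF lowered 3 (6.98%, against 7.85%) and 24 (55.8%, against 12%), with 0 raised in each. DTL, which helps destroy CDT1 in S phase, gave -0.45 and -0.81 for dex with siNON and siIRF2BP2, and RFC3, a clamp loader subunit, gave -0.56 with siIRF2BP2. Of 35 other mitosis genes, TNF raised 5 with siNON (14.3%, against 10.8%) and 23 with siIRF2BP2 (65.7%, against 19.8%) and lowered 0. Dex added to TNF lowered 2 (5.71%, against 7.85%) and 21 (60%, against 12%) and raised 0. CDC25B, a phosphatase that activates CDK1, rose by 0.43 and 0.67 with TNF. ECT2, needed for cytokinesis, rose by 0.53 and 0.65 with TNF and fell by 0.79 and 0.74 when dex was added. The knockdown lowered GINS3 (-0.92 to -1.23) and raised POLD3 (0.64 to 0.97) in all 4 A549 conditions, the directions they had in HEK293-GR.

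Of the 26 G1 regulators and CDK inhibitors, 5 passed for dex in A549 with siNON (4 higher and 1 lower, against 11.2% of all genes in either direction) and 5 with siIRF2BP2 (4 and 1, against 25.6%). CDKN1C was at 0.656 FPKM under vehicle and 4.49 under dex with siNON (log2 fold change 2.84) and at 0.429 and 4.34 with siIRF2BP2 (3.35). CDKN1A was at 13.4 and 16.5 with siNON (0.33, which did not pass) and at 11.97 and 21.9 with siIRF2BP2, where it rose (0.93). TNF raised CDKN1A by 0.39 and 0.82. Dex raised CCND1, the gene for cyclin D1, by 0.86 with siNON and by 0.72 with siIRF2BP2. The gene for cyclin D3, CCND3, fell by 1.26 when dex was added to TNF with siIRF2BP2 and by 0.74 with siNON. CDKN2C, an inhibitor of the cyclin D kinases, was higher after knockdown in all 4 conditions (0.82 to 1.43). CDKN1B, another CDK inhibitor, was higher in all 4 as well (0.31 to 0.53). When dex was added to TNF with siIRF2BP2, CDKN2C fell (-0.33) and CDKN1B fell (-0.40). MYC rose with dex in A549 with siNON (0.45), and in HEK293-GR it fell.

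IRF2BP2 binding was mapped in HEK293-GR after 48 h in steroid-depleted medium and 1 h of vehicle or 100 nM dex, with 2 samples per condition. The 2 lists held 1108 and 1400 peaks (hg19), 484 of them shared. A peak within 10 kb of the start site was found for 1 of 36 members, against 1.78% of all genes. That was MCM2, with a peak of the vehicle list at chr3:127309721-127310063, 7.31 kb upstream. Within 100 kb, 6 of 36 had a peak (16.7%, against 13.6% of all genes): MCM2, MCM3, MCM5, E2F2, BUB1B and AURKB. CCNE1, CCNE2 and GINS2, which passed the knockdown test in the same direction in both lines, were not among them.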

How the data were processed

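RNA-seq was analysed from the tables the authors deposited. Per the submitters' processing notes, the tools used were FastQC, Trimmomatic 0.33, TopHat2, Bowtie2, HOMER and edgeR for RNA, and Bowtie 0.12.9, HOMER 4.10.3 and bedtools for ChIP, on hg19; no role is given for each. The HEK293-GR table holds FPKM per library, the A549 table FPKM of pooled groups, per the file headers. Both hold the authors' log2 fold changes, p-values and FDR, whose test is not given in the sources used here. The deposited peak lists carry a score per peak, which was not used.

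Tags per HEK293-GR library were taken as the number at which FPKM best multiplied back to whole reads. Of the 4904 to 5169 values checked per library, from shorter transcripts with few reads, 100% were whole. The tolerance was 0.01 of a read beyond the rounding of the FPKM. HEK293-GR values were tested with limma 3.58.1 (trend, R 4.3.3) on log2(FPKM + 0.1), all 4 groups in 1 fit. The test covered the 15594 genes reaching 10 reads in 3 or more libraries, Benjamini-Hochberg adjusted, called under 0.05. Fold changes are on the log2(FPKM + 0.1) scale. The fit was tested on simulated data. 4 HEK293-GR samples were not analysed here. A549 Length equals the genomic span in 98.8% of transcripts. The library kit is not described as marking strand, so reads of the 11 members whose span overlaps another gene cannot be told apart from that gene's.

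The members and lists were chosen with earlier results of these data known. All members could be named. From the other lists up to 4 genes per comparison could be named (smallest p in HEK293-GR, largest log2 fold change in A549), and all called CDK inhibitors.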

Additional observations from a re-analysis of the deposited data

How the results depend on the processing

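Counts are of the 36 members called. With the tags covariate, 12.7% of all genes passed for the knockdown under vehicle, 40.8% under dex and 21.5% for the dex response with siNON. Shares of all genes for fits with a library left out are not given here. In HEK293-GR, the knockdown under vehicle called 2, and 1 without the filter on low values, 0 when the fit held just those 2 groups, 0 by the authors' FDR, 5 with the tags covariate, and 1 to 4 when a library was left out (4 without siNON vehicle replicate 3, 1 without siNON vehicle replicate 1 or 2 or siIRF2BP2 vehicle replicate 2). The knockdown under dex called 5, and 14 with median-of-ratios scaling, 15 with limma-voom, 16 with the covariate, 17 by the authors' FDR and 3 to 10 with a library left out. The dex response with siNON called 2, and 6 with the covariate, 1 by the authors' FDR and 1 to 3 with a library left out. The dex response with siIRF2BP2 and the difference of both responses called 0 under every alternative run. The tags covariate and the authors' FDR were added after seeing the data. Same-numbered libraries did not consistently deviate together (correlations from -0.38 to 0.26). Other-numbered ones ranged from -0.48 to 0.57, the highest between siIRF2BP2 vehicle replicate 2 and siNON vehicle replicate 3. With 3 libraries per group these correlations cannot decide whether the replicate numbers pair the samples. With the replicate block 2, 4, 1, 0 and 0 members were called, in the order above. CCNE2 under vehicle lost its call in 5 of 19 alternative fits and CCNE1 in 1 (the fit of 2 groups), and neither passed the authors' FDR (0.0629 and 0.135). In A549, without the 11 members that overlap another gene the counts were 7 for the knockdown under vehicle, 8 under dex, 3 for the TNF response with siNON and 1 for dex added to TNF with siNON, a subset by construction. The median over members of the TNF response with siNON was 0.06 by the authors' log2 fold change and -0.0181 by the ratio of pooled FPKM; with siIRF2BP2 it was 0.14 and 0.01, and the dex plus TNF response of the G2/M genes 0.06 and -0.08; no called member changed sign. Depth limits CCNE2 and E2F2 in A549 (200.1 and 271.5 reads per column).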
